A study of Mus musculus with 4 samples.

Results

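The cells described here carried messenger RNA of Sox2 together with Foxe1 or Nkx2-1, a combination of transcription factors known from the anterior foregut. A cell was taken as a member if it had at least 500 detected genes, at most 10% of its counts from mitochondrial genes, at least 1 unique molecular identifier (UMI, a count of 1 captured RNA molecule) of Sox2, at least 1 UMI of Foxe1 or Nkx2-1, and fewer than 2 detected genes out of Pou5f1, Nanog, Dppa3, Dppa4 and Dppa5a, which mark pluripotent cells. This chose 74 of 8876 kept cells. DUX-pulsed replicates 1 and 2 held 29 and 11 members, and control replicates 1 and 2 held 21 and 13.

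The cells came from mouse embryoid bodies, free-floating aggregates of differentiating embryonic stem cells, taken at day 9 and sequenced as single cells in droplets. DUX-pulsed embryoid bodies had grown from stem cells in which the transcription factor DUX had been expressed for a time, and control embryoid bodies from stem cells without the pulse. Each group had 2 libraries that the series design calls biological replicates. The stem cell line, its sex and genotype, and the means and length of the pulse were not given in the sources used here.

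SOX2 is a transcription factor of pluripotent cells, of the neural tube and, in the endoderm, of the foregut, where it marks the future pharynx, oesophagus and stomach. FOXE1 is needed for the thyroid and is also made in the lining of the pharynx and mouth. NKX2-1 is needed for the thyroid and the lung and is made in the ventral forebrain as well. Pharyngeal endoderm folds into pouches that express PAX1, PAX9 and NKX2-3, and it sends out the ligand Sonic hedgehog. DUX is a homeobox factor of the early mouse embryo that activates genes of that stage when expressed in embryonic stem cells.

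The members were chosen by the measured UMIs of Sox2, Foxe1, Nkx2-1 and the pluripotency genes, whose values are given only as a description. Sox2 had a median of 4 UMIs per member and a maximum of 22. Foxe1 was detected in 66 members and Nkx2-1 in 13. Just inside the threshold, 13 members had a single Sox2 UMI, 15 had a single Foxe1 UMI, and 5 had 1 UMI of Sox2 and 1 UMI in sum over Foxe1 and Nkx2-1. Just outside it, 112 kept cells had Foxe1 or Nkx2-1 and no Sox2, and 279 had Sox2 and neither of the other genes. The condition on pluripotency genes alone left out 2 cells, both of control replicate 1, with 5 and 3 of the pluripotency genes, and 9 members had 1 such gene. The mitochondrial limit alone left out 16 cells.

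Members were somewhat deeper than other cells. Their median was 31595 and 30690 UMIs in DUX-pulsed replicates 1 and 2 and 42418 and 45263 UMIs in control replicates 1 and 2, against 28563.5 over all kept cells. Summed over the members, the libraries held between 396164 and 1155109 UMIs, and the least deep sum was that of DUX-pulsed replicate 2. The libraries shared 8 cell barcodes, none of them in a member. Scrublet, a program that scores cells for likeness to simulated doublets, put 1 and 6 members of DUX-pulsed replicates 1 and 2 and 1 and 0 members of control replicates 1 and 2 among the 5% of cells with the highest scores. High scores were thus concentrated in DUX-pulsed replicate 2, where 6 of 11 members had one.

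RNA set free from broken cells can put UMIs of a gene into droplets of cells that do not make it. Heart-muscle cells should lack all 3 genes of the rule and served to measure this; they were taken as cells with at least 3 of Myl7, Tnni3, Myh6 and Tnnt2 and at least 20 UMIs of these genes. Of 914 such cells, with a median of 24193.5 UMIs, 2.74% had a Sox2 UMI, 0.438% a Foxe1 UMI and none an Nkx2-1 UMI, which allows a share of up to 0.328%. Of the 7962 other kept cells, with a median of 29251.5 UMIs, 4.63% had a Sox2 UMI, 2.16% a Foxe1 UMI and 0.301% an Nkx2-1 UMI. The share with Sox2 was 0.733% and 1.11% of heart-muscle cells in DUX-pulsed replicates 1 and 2 and 10.8% and 4.17% in control replicates 1 and 2, against 6.65%, 3.88%, 5.40% and 2.83% of the other kept cells of the same libraries. In both control libraries the share was higher in heart-muscle cells than in the others. No heart-muscle cell met the whole rule, against 0.929% of the other kept cells. Sox2 was present in 39.8% of the cells with Foxe1 or Nkx2-1 and in 3.24% of the cells without them. With cells under 10000 UMIs left out and the rest thinned to 10000 UMIs, these shares were 50% of 78 cells and 1.96% of 7193 cells.

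Members made up a small share of each library. The share was 1.41% of kept cells in DUX-pulsed replicate 1 (exact Clopper-Pearson 95% interval 0.943 to 2.01%, counting error only) and 0.813% in DUX-pulsed replicate 2 (0.407 to 1.45%). It was 0.744% in control replicate 1 (0.461 to 1.13%) and 0.493% in control replicate 2 (0.263 to 0.842%). DUX-pulsed libraries averaged 1.11% ± 0.419 and control libraries 0.618% ± 0.177 (SD, n = 2 each), a difference of 0.491 percentage points. Both DUX-pulsed shares lay above both control shares, and an exact two-sided permutation test gave p = 0.333, the smallest that 2 against 2 libraries allow. Under a stricter limit (1000 genes, 5% mitochondrial counts) the difference turned round, at 1.04% in DUX-pulsed and 1.14% in control libraries (exact permutation p = 0.667). Without the cells of high doublet score it was 0.276 percentage points, since DUX-pulsed replicate 2 then kept 5 members.

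**Figure D1:**
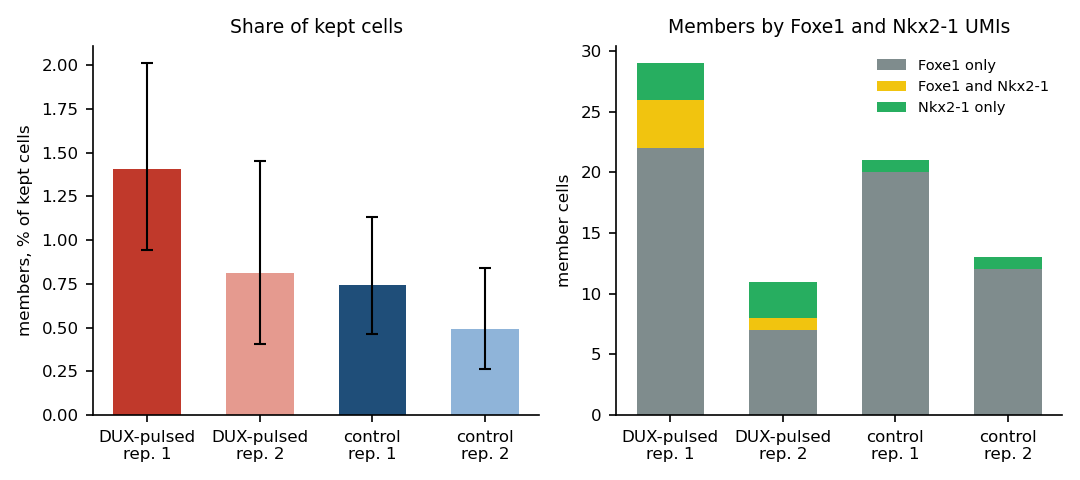
Left, members as a percentage of the kept cells of each library, with exact 95% binomial intervals that cover counting error only. Right, the number of members of each library by the genes detected in them. The 2 DUX-pulsed libraries stand at 1.41% and 0.813% and hold 11 of the 13 members with Nkx2-1, and the 2 control libraries stand at 0.744% and 0.493%.

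Members fell into a large set with Foxe1 and a small set with Nkx2-1, and other genes divided along the same line. Foxe1 without Nkx2-1 was found in 61 members (22 and 7 in DUX-pulsed replicates 1 and 2, 20 and 12 in control replicates 1 and 2). Nkx2-1 was found in 13 members (7 and 4 in DUX-pulsed replicates 1 and 2, 1 and 1 in control replicates 1 and 2), of which 5 had Foxe1 as well, all of them DUX-pulsed. Nkx2-1 was thus seen mostly in DUX-pulsed members. The same held outside the members: of the other kept cells, 7 and 2 in DUX-pulsed replicates 1 and 2 and 1 and 1 in control replicates 1 and 2 had it. The members with Nkx2-1 were deeper, with a median of 62704 UMIs against 31595. The split used measured values and the control libraries held 1 Nkx2-1 cell each, so their differences are given as counts without a test.

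Several genes of pharyngeal endoderm and oral epithelium were detected mainly in the 61 members with Foxe1 alone. Nkx2-3, a homeobox factor of pharyngeal endoderm, was detected in 39 of the 61 and in 0 of the 13 members with Nkx2-1. Tlx1, a homeobox factor known from spleen and branchial arches, was detected in 31 and 0 cells, and Trp63, the p53 family member that maintains stratified epithelium, in 32 and 0. The netrin receptor gene Unc5c was detected in 37 and 0 cells. Pax1 was detected in 10 and 0, and Tfap2a, a surface ectoderm factor, in 28 and 1. All of these were absent or rare in the cells with Nkx2-1 although those cells were deeper. Pax9 did not divide along this line, with 14 of the 61 and 2 of the 13 cells and 23.55 and 21.5 CPM.

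The 13 members with Nkx2-1 held other genes. Foxa1, a pioneer factor of endoderm, was detected in all 13 and in 21 of the 61 members with Foxe1 alone, at 210.0 and 18.1 CPM (counts of the gene per 1e+06 UMIs of the summed cells, unscaled). Alcam, a cell adhesion molecule, was detected in 13 and 16 cells, at 172 and 22.7 CPM, and Mecom, a zinc finger factor, in 13 and 16. Shh, the hedgehog ligand, was detected in 11 and 21 cells, at 315 and 44.6 CPM. Mal2, a membrane protein of polarised epithelium, was detected in 10 and 3 cells, Osr1 in 10 and 5, and Csf1 in 10 and 7. Genes of the liver list were among them, with Itih2 in 9 and 3 cells and Vtn in 11 and 11, Vtn at 124 and 26.9 CPM. Afp, also on that list, reached 278 UMIs in a member with Nkx2-1 and 404 UMIs in a member with Foxe1 alone. Foxa2 (12 of 13 and 41 of 61), Isl1 (12 and 49) and Epcam (12 and 59) were common in both. Pax8, which with Nkx2-1 and Foxe1 marks the thyroid bud, was detected in no member. Hhex, also on the thyroid list, was detected in 5 of the 13 and 5 of the 61, at 40.4 and 8.41 CPM.

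Rank correlations over the 74 cells, among 9649 genes, named the genes whose pattern was most like each of the genes of the rule. For Foxe1 these were Col2a1 (Spearman rho 0.63), Nkx2-3 (0.63), Csrp2 (0.59) and Tlx1 (0.58). For Nkx2-1 they were Mal2 (0.72), Foxa1 (0.71), Alcam (0.67) and Osr1 (0.64). For Sox2 the closest was Zfp462, at 0.47. These values describe cells that share libraries and differ in depth, and carry no p-value.

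**Figure D2:**
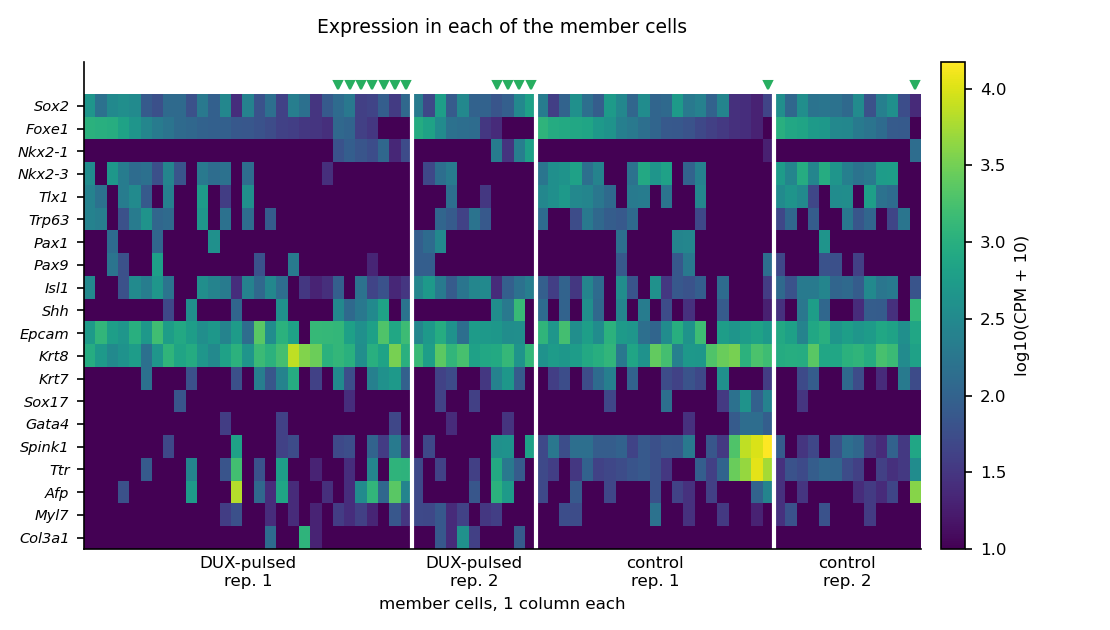
Expression of 20 genes in each of the 74 members, 1 column a cell, as log10 of CPM plus 10, with the cells of each library ordered by Foxe1 and green triangles over the 13 members with Nkx2-1. Nkx2-3, Tlx1 and Trp63 are dark under every triangle. The 4 cells of control replicate 1 at the right of their block have high Spink1 and Ttr; 3 of them had no UMI of the 7 pharyngeal genes counted in the text, and the last, with Nkx2-1, had 3 of the 7.

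A few members of control replicate 1 stood apart. Of 7 genes of the pharynx (Nkx2-3, Pax1, Pax9, Isl1, Trp63, Tlx1 and Shh, chosen after their values were seen), at least 2 were detected in 61 of 74 members, or 82.4%. At least 2 were detected in 13.4% of cells with Foxe1 or Nkx2-1 and no Sox2, in 20.4% of cells with Sox2 alone, and in 3.36% of all other kept cells. With cells under 10000 UMIs left out and the rest thinned to 10000 UMIs, the shares were 64.4%, 7.48%, 10.8% and 1.58%. The 4 members with none of the 7 were all in control replicate 1. In 3 members of that library, 2 of them among these 4, Ttr and Spink1, secreted proteins of visceral endoderm and gut, made up at least 1% of all UMIs. The members of control replicate 1 therefore had 3241 CPM of Spink1 and 77.2 CPM of Sox17, against 66.1, 122 and 127 CPM of Spink1 and 1.76, 4.87 and 1.56 CPM of Sox17 in the members of DUX-pulsed replicates 1 and 2 and control replicate 2. Afp, also on the visceral endoderm list, ran the other way. It had 47.5 CPM in the members of control replicate 1, against 667, 246 and 446 CPM in those of the other libraries in the same order.

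Promoters of Nkx2-3 and Tlx1, homeobox genes of the Foxe1 members that were lower in DUX-pulsed members, and of Pax9, a pouch factor whose levels overlapped between the groups, are shown so that the letters of genes that moved together can be set beside those of one that did not. They run from 250 bases before to 50 bases after the RefSeq transcription start in GRCm38.p6, all on the plus strand, at chr19:43612075-43612374 for Nkx2-3, chr19:45150465-45150764 for Tlx1 and chr12:56695221-56695520 for Pax9. Capitals mark matches on either strand to CACTTG (a core of NK2 homeobox sites), ACAATG (a core of SOX sites) and CCAAT (a box common in promoters, added after the sequences had been read).
Nkx2-3: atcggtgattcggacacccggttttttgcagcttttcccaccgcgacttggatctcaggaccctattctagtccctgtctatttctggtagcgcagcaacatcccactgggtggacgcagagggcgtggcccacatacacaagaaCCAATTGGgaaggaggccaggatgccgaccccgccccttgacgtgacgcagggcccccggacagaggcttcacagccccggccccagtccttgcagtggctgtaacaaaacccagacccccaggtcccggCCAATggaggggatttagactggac
Tlx1: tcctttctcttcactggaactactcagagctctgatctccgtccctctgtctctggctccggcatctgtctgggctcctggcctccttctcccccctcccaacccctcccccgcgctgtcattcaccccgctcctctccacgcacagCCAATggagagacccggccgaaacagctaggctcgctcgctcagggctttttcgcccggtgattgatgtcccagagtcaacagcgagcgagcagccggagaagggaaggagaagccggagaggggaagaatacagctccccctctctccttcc
Pax9: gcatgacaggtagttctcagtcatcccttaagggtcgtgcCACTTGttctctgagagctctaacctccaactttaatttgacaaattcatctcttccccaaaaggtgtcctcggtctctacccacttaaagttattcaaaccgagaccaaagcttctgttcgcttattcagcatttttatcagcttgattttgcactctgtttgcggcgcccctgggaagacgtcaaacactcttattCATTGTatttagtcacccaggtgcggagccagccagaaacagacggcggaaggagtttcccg
CCAAT was matched 3 times in Nkx2-3, where 2 matches on opposite strands overlap, once in Tlx1 and 0 times in Pax9. Pax9 had 1 match to CACTTG and 1 to ACAATG, and the other promoters had 0 of both. Of 32851 promoters of this length, 13.6% held CACTTG, 12.6% ACAATG and 37.4% CCAAT, a description of how common such letters are. Foxe1, Shh and Trp63 were not in the promoter table.

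Set against the 8802 other kept cells, the members carried a broad set of pharyngeal and oral genes. UMIs were summed per library for members and for the other cells and compared within libraries with edgeR's quasi-likelihood test, with Benjamini-Hochberg adjustment over 16134 genes. At an adjusted p under 0.05, 620 genes were higher in members (3.84% of genes tested) and 1402 lower (8.69%), 2022 in all (12.5%). DESeq2, with its own scaling, called 864 higher and 1218 lower. CPM below are over library sizes scaled by the trimmed mean of M-values (TMM), and all log2 fold changes are members over the named cells.

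Of 16 pharyngeal and anterior foregut transcription factors, 14 could be tested: 12 were higher in members, 0 lower, and Tbx1 and Nkx2-6 did not pass. Their median log2 fold change was 2.55, against -0.14 over all genes tested. Nkx2-3 had 44.0 and 46.2 CPM in members of DUX-pulsed replicates 1 and 2 and 153 and 322 CPM in members of control replicates 1 and 2, against 5.20, 4.59, 3.62 and 1.21 CPM in the other cells of the same libraries. Members were thus above the other cells in every library, and the control members were highest. The log2 fold change was 5.07 (SE 0.69, edgeR adjusted p = 0.000599).

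Isl1, a LIM homeobox factor of pharyngeal endoderm and heart progenitors, had 87.2, 163, 67.3 and 119 CPM in members, against 17.6, 18.8, 7.22 and 5.35 CPM in the other cells of the libraries in the same order (log2 3.26, SE 0.28, edgeR adjusted p = 1.67e-05). Pax1 rose by 6.24 (edgeR adjusted p = 0.000351, from 10 members with a UMI) and Pax9 by 4.38 (adjusted p = 0.000119, from 16). The Iroquois factors Irx2, Irx3 and Irx5 rose by 3.10, 1.94 and 3.25, the placode and pouch gene Eya1 by 2.69, and Foxp1 and Foxp2 by 0.91 and 1.80. Foxp2 no longer passed without DUX-pulsed replicate 1 (edgeR adjusted p = 0.0614). Irx1, at 1.62, passed narrowly and was lost without DUX-pulsed replicate 1, DUX-pulsed replicate 2 or control replicate 2 (adjusted p between 0.0914 and 0.301). Tlx1, which is on no list, had 34.3, 24.3, 102 and 164 CPM in members and at most 1.57 CPM in the other cells of any library (log2 6.59, SE 0.68, edgeR adjusted p = 8.01e-05).

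Genes of oral and surface ectoderm rose beside the foregut genes. Of 9 tested genes of that list, 6 rose, 0 fell, and the median log2 fold change was 3.79. Trp63 had 37.0, 41.4, 34.6 and 48.5 CPM in members, against 0.370, 0.952, 0.0659 and 0.190 CPM in the other cells (log2 7.14, SE 0.56, edgeR adjusted p = 7.54e-06), so that the members of all 4 libraries were alike. Tfap2a rose by 4.46, and Dlx3 and Dlx5, homeobox genes of the arches and ectoderm, by 3.79 and 2.81. The basal keratin genes Krt15 and Krt14 rose by 4.23 and 4.05. Krt14 was lost without control replicate 1 or 2 (edgeR adjusted p = 0.0906 and 0.0735) and Dlx5 without DUX-pulsed replicate 1 or 2 (adjusted p = 0.150 and 0.0940). Foxa1 or Foxa2 was detected in 60 of 74 members, at least 1 of 8 oral and surface genes in 53, and both in 41. Of the 32 members with Trp63, 25 had Foxa1 or Foxa2. Both kinds of gene were common, and whether they met more often than their separate shares would give was not tested. Trp63, Krt14 and Krt15 are on the oesophagus and stomach list as well.

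Genes of several steps of the hedgehog pathway were higher in members. Of its 11 tested genes, 5 rose and 1 fell, with a median log2 fold change of 1.498. Shh, the ligand, had 106, 126, 44.5 and 192 CPM in members, against 8.05, 18.0, 2.38 and 5.02 CPM in the other cells (log2 4.02, SE 0.32, edgeR adjusted p = 8.25e-06). Ptch1, the receptor and a standard target, rose by 1.76, the receptor component Smo by 0.69, and the effectors Gli1 and Gli3 by 2.03 and 1.63, while Ihh, the Indian hedgehog ligand, fell by 1.84 on the log2 scale.  Gli1 was close to the threshold (edgeR adjusted p = 0.0486) and was lost without DUX-pulsed replicate 1, control replicate 1 or control replicate 2 (adjusted p between 0.0533 and 0.181).

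Other signalling genes moved in part. In the retinoic acid list 4 of 14 genes rose and 1 fell: the receptor genes Rarb (2.63) and Rarg (1.78) and the retinoid binding protein genes Crabp1 (2.26) and Crabp2 (2.43) rose, and Cyp26a1, which breaks retinoic acid down, fell by 2.89. Crabp1 was lost without DUX-pulsed replicate 2 (edgeR adjusted p = 0.0565) and Rarg without control replicate 1 (adjusted p = 0.0852). In the BMP list 6 of 16 rose and 3 fell, with the ligand gene Bmp4 at 1.15 and Msx2, a target, at 1.36. Bmp4 was lost without control replicate 1 (adjusted p = 0.0686). In the WNT list 3 of 18 rose and 5 fell. Wnt6, an epithelial ligand, had 104, 70.6, 14.8 and 26.6 CPM in members, against 2.61, 5.22, 1.95 and 0.964 CPM in the other cells (log2 4.28, SE 0.38, edgeR adjusted p = 2.16e-05). In the FGF list 1 of 16 rose and 4 fell, and in the Notch list 2 of 13 rose and 0 fell. Of 10 tested anterior and 15 tested posterior Hox genes 0 passed in edgeR and 0 in DESeq2, while 2 and 1 had an unadjusted p under 0.05 in edgeR.

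General endoderm genes moved both ways, and genes of visceral endoderm, liver and gut fell where they passed. Of 21 general endoderm and epithelium genes, with a median of -0.21, 3 rose (the tight junction gene Cldn4 by 2.61, the splicing regulator Esrp1 by 1.30 and the keratin gene Krt7 by 1.23) and 7 fell. Those that fell included Gata4 (log2 -3.201), Gata6 (-1.66), Sox17 (-2.98), Hnf4a (-2.76), Foxa3 (-2.08) and Spink1 (-3.25), genes made in visceral or posterior endoderm among other places. Other genes that rose were Pcdh8, a protocadherin (5.19), Sema3d, a secreted guidance cue (4.83), Rassf9 (3.89) and Myh14, a non-muscle myosin heavy chain (4.02). Of 13 visceral endoderm genes 10 fell and 0 rose, with a median of -2.78, among them Ttr (-3.38) and Afp (-1.94). Of 15 liver genes 6 fell and of 12 hindgut genes 3 fell, with no rise in either list. DESeq2 did not call Spink1 lower (adjusted p over the alternatives up to 0.413).

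The label was then checked against organs that arise from anterior foregut endoderm. Whether the members were foregut endoderm or oral ectoderm was not tested. Of 11 thyroid genes, 7 had no UMI in any member (among them Pax8, Tg, Duox2, Duoxa2, Slc26a4 and Iyd), and of 6 tested 0 rose and Hhex fell by 1.83. Of 11 tested lung genes edgeR called 0 higher, DESeq2 called 1 higher and 1 was higher at an unadjusted p under 0.05 in edgeR, while Abca3, Etv5 and Hopx fell by 1.099, 1.18 and 1.94; Sftpc, Sftpa1, Scgb1a1 and Cldn18 had no UMI in a member. Hopx was lost without DUX-pulsed replicate 2 (edgeR adjusted p = 0.0691) and Abca3 without DUX-pulsed replicate 2 or control replicate 2 (0.0507 and 0.0563). Of 10 oesophagus and stomach genes 4 rose, Trp63, Krt14, Krt15 and Osr1, and 3 fell. Trp63, Krt14 and Krt15 are also on the oral and surface ectoderm list and were counted there, so only Osr1 was particular to this list. Osr1, at 2.15, was lost without DUX-pulsed replicate 1 or 2 (adjusted p = 0.127 and 0.0970). The 16 lung genes summed to 541.1 and 737 CPM in DUX-pulsed members and 540.9 and 657 CPM in control members, against 379 and 480.2 CPM in the other DUX-pulsed and 554 and 767.9 CPM in the other control cells. Tg and Cldn18 averaged 1.17 and 0.466 CPM in the other cells, near or under the 0.961 CPM that 3 counts over all members would give, so a lower level in members was not detectable at this depth.

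Ventral forebrain, which shares Sox2 and Nkx2-1, was checked in the same way. Six3, Rax, Nkx2-2, Gsx2, Lhx8, Fezf1 and Vax1 had no UMI in a member. The 15 genes of the list summed to 0.866 and 7.57 CPM in DUX-pulsed members and 13.1 and 34.9 CPM in control members, and to between 10.8 and 24.4 CPM in the other cells. Of 8 tested, Dlx2 rose by 3.47 and Lhx2 fell by 3.50; the median was -2.64, or 0.52 with genes at 0 in members set to their bound. Dlx2 was lost without DUX-pulsed replicate 2, control replicate 1 or control replicate 2 (edgeR adjusted p between 0.0636 and 0.272), and Lhx2 without DUX-pulsed replicate 1 or 2 (0.128 and 0.0584). Otx2, a factor of forebrain and anterior endoderm counted here with the primed epiblast genes, rose by 2.62, while Eomes and Mixl1 of the streak fell by 5.27 and 3.74. Mixl1 was lost, narrowly, without DUX-pulsed replicate 2 (adjusted p = 0.05001).

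Genes of other lineages were far lower in members. All 17 heart muscle genes fell, with a median log2 fold change of -6.58 (-6.01 with genes at 0 set to their bound), and all 12 erythroid genes, with a median of -8.19 (-5.89). Of 13 myeloid genes 12 fell, of 11 endothelial genes 9 and of 16 mesenchyme genes 10, with 0 rises. Several genes had no UMI in any member, and the fold below is against a floor of 3 counts over all members. Ankrd1, a heart muscle gene, was at least 74.3-fold lower, the adult beta-globin gene Hbb-bs at least 60.9-fold, Actn2 at least 64.5-fold and Clec1b, a platelet receptor, at least 26.99-fold. Cox6a2, Ctla2a, Asb2 and Hspb7 were at least 47.8-fold, 41.0-fold, 34.6-fold and 32.4-fold lower.

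Of 15 S phase genes 5 rose and 0 fell, with a median of 0.38, and of 15 G2 and M genes 1 rose. Mcm2, of the replicative helicase, rose by 0.52 (edgeR adjusted p = 0.0388) and the mitotic kinase gene Aurkb by 0.57 (adjusted p = 0.0385). Both were lost in 3 of the 4 fits that left out 1 library, Mcm2 in all but that without DUX-pulsed replicate 1 and Aurkb in all but that without DUX-pulsed replicate 2, at adjusted p between 0.0568 and 0.215.

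**Figure D3:**
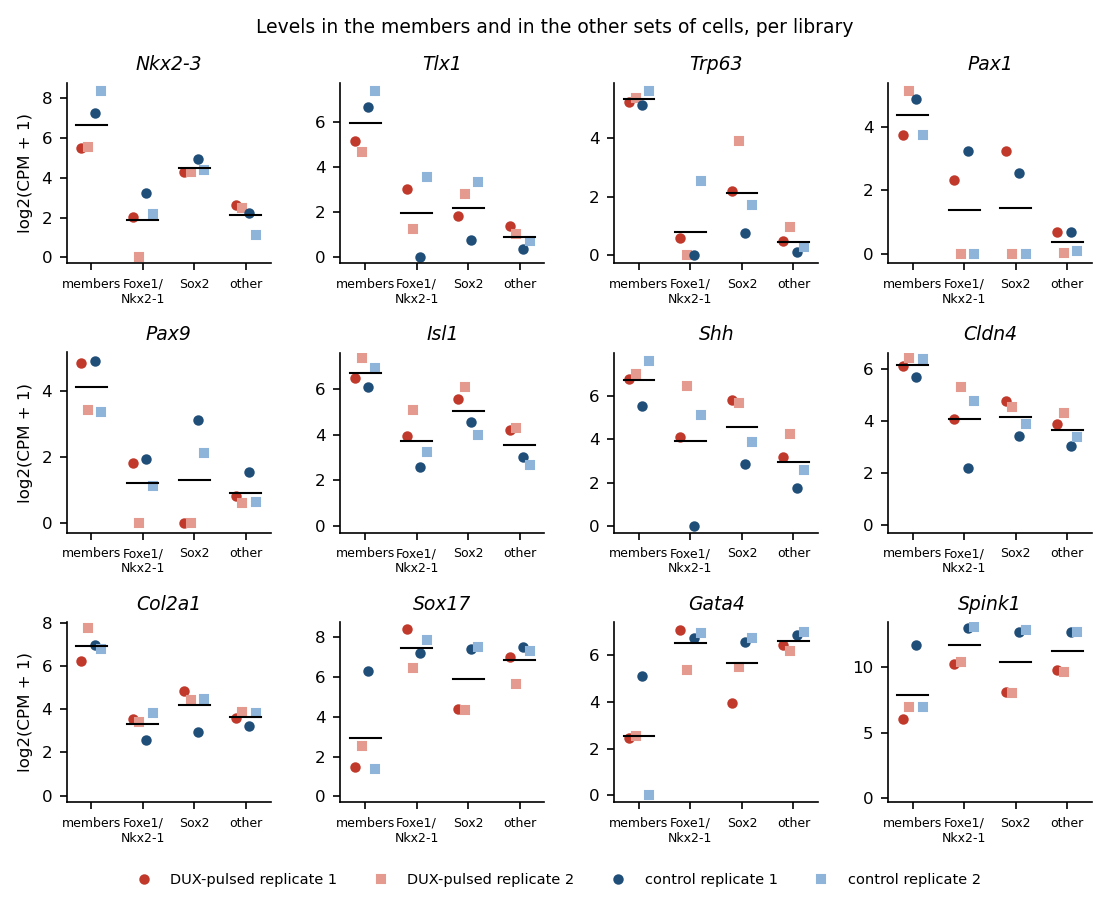
Levels of 12 genes in the members, in cells with Foxe1 or Nkx2-1 and no Sox2, in cells with Sox2 and neither, and in all other kept cells, as log2 of CPM plus 1 per library, with the mean of the 4 libraries as a line. Trp63 in members lies within 34.6 to 48.5 CPM in the comparison with all other cells, above each other set, and the member point of control replicate 1 is the high one for Sox17, Gata4 and Spink1.

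Cells with Foxe1 or Nkx2-1 and no Sox2 had lower levels than members of 9 of 11 tested pharyngeal transcription factors. These 112 cells had a median of 40400 UMIs, against 35332 in members. Foxe1 summed to 155 UMIs over the 105 of them that had it, against 615 UMIs over 66 members. How many of the 112 cells held only stray UMIs of Foxe1 or Nkx2-1 was not tested. Of 9804 genes tested, 473 were higher in members (4.82%) and 669 lower (6.82%), 1142 in all (11.6%). None of the 11 was lower in members, and their median log2 fold change was 2.54, against 0.00 over all genes. Nkx2-3 had 45.1, 49.1, 152 and 337 CPM in members, against 3.02, 0, 8.46 and 3.57 CPM in these cells (log2 4.84, SE 0.41, edgeR adjusted p = 0.000566). Isl1 rose by 3.01, Pax9 by 3.46 and Tlx1 by 3.94.

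Wnt6 showed the largest rise among the genes named for this comparison, at 106, 74.9, 14.7 and 27.8 CPM in members, against 1.51, 0, 0 and 1.19 CPM (log2 6.08, SE 0.47, edgeR adjusted p = 0.000323). Trp63 rose by 5.16, Sema3d by 4.66, Col9a1, a cartilage collagen chain also made by early epithelia, by 4.19, Tmem54 by 4.11 and Cldn4 by 2.04. Shh rose by 2.35, with 108, 134, 44.0 and 201 CPM in members, against 16.1, 86.5, 0 and 33.3 CPM. Shh was lost without DUX-pulsed replicate 1 (edgeR adjusted p = 0.0817) and without control replicate 2 (0.0944). Pax1, at 2.54, was lost without DUX-pulsed replicate 1, DUX-pulsed replicate 2 or control replicate 2 (adjusted p between 0.0623 and 0.0888).

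Visceral endoderm genes were higher in these cells than in members. Of 11 tested genes of that list 10 were lower in members and 0 higher. Spink1 had 67.7, 129, 3205 and 133 CPM in members, against 1190, 1358, 8276 and 8777 CPM (log2 -3.70, SE 0.64, edgeR adjusted p = 0.00872), so that members were lower in each library and those of control replicate 1 highest among members. All other kept cells had 902, 794, 6689 and 6656 CPM of Spink1, of the same order as the cells compared here. Sox17 fell by 3.67 and Gata4 by 3.32. Sox17 was lost without DUX-pulsed replicate 1, DUX-pulsed replicate 2 or control replicate 2 (adjusted p between 0.0654 and 0.102). Glipr1, Fermt3 and Igfbp1 fell by 5.94, 5.29 and 4.79. Ctla2a, Ankrd1 and Clec1b had no UMI in members and were at least 99.9-fold, 71.0-fold and 47.4-fold lower. These last calls rested mostly on single libraries of the compared cells, with 299.9 CPM of Ctla2a and 173 CPM of Clec1b in DUX-pulsed replicate 2, against 81.4 and 6.53 CPM in DUX-pulsed replicate 1 and at most 1.41 CPM in either control library. Of 15 G2 and M genes 7 rose, Cdk1 by 0.70 and Mki67 by 0.57 among them. Cdk1 was lost in 3 and Mki67 in 4 of the 4 fits without 1 library (adjusted p between 0.0644 and 0.143).

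The 279 cells with Sox2 and neither Foxe1 nor Nkx2-1 had higher levels than members of 14 heart muscle genes and lower levels of 3 pharyngeal factors. Their median was 35017 UMIs. Sox2 summed to 830 UMIs over these 279 cells, against 445 UMIs over the 74 members. Of the 914 heart-muscle cells described above, 25 had a Sox2 UMI and none was a member. How many of those 25 were among the 279 was not counted, and their part in the difference in heart muscle genes was not tested. Of 11215 genes tested, 104 were higher in members (0.927%) and 137 lower (1.22%), 241 in all (2.15%). Of 13 tested pharyngeal transcription factors 3 rose, Isl1 (1.68), Eya1 (1.65) and Nkx2-3 (2.42), and 0 fell, with a median of 1.41, against -0.03 over all genes. All 3 calls were lost without DUX-pulsed replicate 2 or control replicate 1 (edgeR adjusted p between 0.0754 and 0.163), and that of Eya1 also without DUX-pulsed replicate 1 (0.0671). DESeq2 called 5 of the 13 higher.

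Tlx1 had 35.4, 25.8, 101 and 173 CPM in members, against 2.48, 5.98, 0.661 and 9.09 CPM in the Sox2 cells (log2 4.45, SE 0.52, edgeR adjusted p = 0.00325). Members were higher in each library. Trp63 rose by 3.54, and Cyp1a1, a detoxifying enzyme under control of the aryl hydrocarbon receptor, by 3.63. Col2a1, a cartilage and notochord collagen, had 77.2, 229.8, 122 and 114 CPM in members, against 27.6, 20.2, 6.83 and 21.2 CPM (log2 2.83, SE 0.38, edgeR adjusted p = 0.00740), and was lost without DUX-pulsed replicate 2 (adjusted p = 0.0766). Sema3d (2.98), Pcdh8 (2.89), Cldn4 (2.07), Shh (2.19), Krt7 (1.45) and Pitx1 (1.92) also rose. Of these Cldn4 kept its call without each library in turn, and the others were lost without at least DUX-pulsed replicate 2 (adjusted p between 0.0635 and 0.153). Shh, Krt7 and Pitx1 were also lost without control replicate 1 (0.103, 0.120 and 0.174), Pcdh8, Krt7 and Pitx1 without DUX-pulsed replicate 1 (0.0642, 0.0770 and 0.0622) and Pitx1 without control replicate 2 (0.0511).

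Of 16 tested heart muscle genes 14 were lower in members and 0 higher. Ttn, the giant sarcomere protein gene, had 2.73, 0, 0 and 1.65 CPM in members, against 149, 383, 396 and 346 CPM in the Sox2 cells (log2 -7.75, SE 0.43, edgeR adjusted p = 0.000108). Csrp3, Myl4 and Actc1 fell by 7.03, 6.28 and 6.17. Actn2 and Cox6a2 had no UMI in members and were at least 26.0-fold and 25.3-fold lower, the call of Cox6a2 being lost without DUX-pulsed replicate 2 (adjusted p = 0.0792). Lhx2, a forebrain and limb factor, fell by 4.09 and was lost without DUX-pulsed replicate 1, DUX-pulsed replicate 2 or control replicate 1 (adjusted p between 0.0601 and 0.183). Scrublet placed 29 of the 279 Sox2 cells and 8 of the 74 members among its highest scores.

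Between DUX-pulsed and control members a small set of genes differed. Of 7644 genes tested, 91 were higher in DUX-pulsed members (1.19%) and 22 lower (0.288%), 113 in all (1.48%). DESeq2 called 81 higher and 18 lower. The counts rested on 11 cells in DUX-pulsed replicate 2 and depended on which cells and libraries entered: 23 genes were called without DUX-pulsed replicate 1, 48 without DUX-pulsed replicate 2, 190 without control replicate 1 and 298 without control replicate 2.

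Part of these calls followed position on the chromosome. A running median over 61 tested genes lay more than 0.3 from 0 in 4 regions, given here in GENCODE vM21 positions on GRCm38. Chromosome 13 was higher throughout (from 3538063 to 119790889; 248 tested genes, median log2 0.89), as was the end of chromosome 4 (131843470 to 156247616; 134 genes, 0.91). The distal part of chromosome 5 was lower (110784488 to 151651242; 260 genes, -0.54), and so was the end of chromosome 16 (84717576 to 97962622; 46 genes, -0.60). Over all kept cells the medians of the same regions were 1.01, 0.90, -0.42 and -0.53, so the shifts were not those of the members alone. The regions held 9.00% of the genes tested and 44.2% of those called. Outside them 63 genes were called (47 higher and 16 lower, 0.906% of genes there). What underlies these shifts was not tested. Each gene named below as called between DUX-pulsed and control members is marked if it lies in such a region. Among the results flagged for a closer look, such positions are given for only some genes.

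**Figure D4:**
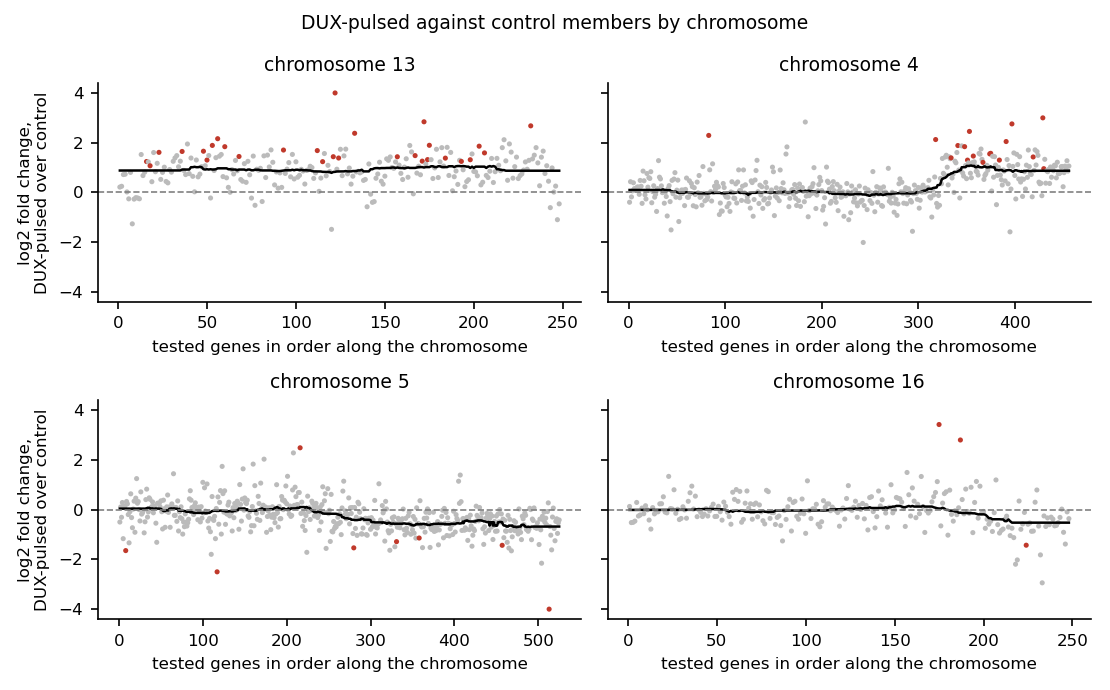
Log2 fold change of DUX-pulsed over control members for each tested gene, in order along chromosomes 13, 4, 5 and 16, with called genes in red, the running median of 61 genes as a line, and values beyond 4 drawn at 4. The line sits near 0.89 over all of chromosome 13, rises in the last part of chromosome 4, and falls in the last parts of chromosomes 5 and 16.

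Among the rises outside the shifted regions, Tagln, an actin-binding protein of smooth muscle and of spreading cells (chr9), had 436 and 794 CPM in members of DUX-pulsed replicates 1 and 2, against 30.6 and 22.7 CPM in members of control replicates 1 and 2. The groups were far apart, and the log2 fold change was 4.48 (SE 0.36, edgeR adjusted p = 0.000255). It was detected in 12 of 29, 5 of 11, 12 of 21 and 4 of 13 members of the libraries in that order. The share of members with a UMI thus overlapped between the groups. How the UMIs of Tagln were spread over the cells was not examined. Without the cells of high doublet score Tagln was no longer called (edgeR adjusted p = 0.121), while the other 13 alternatives kept the call.

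Alcam had 110.1 and 115 CPM in DUX-pulsed members, against 11.9 and 8.11 CPM in control members (log2 3.42, SE 0.36, edgeR adjusted p = 0.00112). Its level also went with Nkx2-1, which was detected in 7 and 4 DUX-pulsed and 1 and 1 control members. In the members with Foxe1 alone it had 58.7 and 7.70 CPM in DUX-pulsed and 7.93 and 3.98 CPM in control libraries and fell under the count filter. Anxa5, a phospholipid-binding protein, had 161 and 94.4 CPM in DUX-pulsed members, against 21.8 and 11.3 CPM in control members (log2 2.91, SE 0.39, edgeR adjusted p = 0.00415), and was lost without DUX-pulsed replicate 1 (adjusted p = 0.0922).

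Signalling genes were among the rises. Wnt6 had 107 and 76.0 CPM in DUX-pulsed members, against 14.8 and 27.6 CPM in control members (log2 2.204, SE 0.38, edgeR adjusted p = 0.0164). It kept its call in members with Foxe1 alone and lost it without DUX-pulsed replicate 1 (adjusted p = 0.188). Crabp1 had 51.9 and 131 CPM, against 6.92 and 3.24 CPM (log2 3.94, SE 0.59, edgeR adjusted p = 0.00870), and was detected in 10 and 5 DUX-pulsed and in 3 and 1 control members. Tac2, which encodes the neuropeptide neurokinin B, had 55.5 and 73.4 CPM in DUX-pulsed members and no UMI in control members, at least 33.7-fold higher, but came from 4 cells. Gas1, a hedgehog co-receptor gene in the region of chromosome 13, rose by 2.38 and was lost without control replicate 1 (adjusted p = 0.0965).

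Of 8 tested genes of the mesenchyme list 2, Col3a1 and Vim, were higher in DUX-pulsed members, and 0 lower. Col3a1, a fibrillar collagen gene, had 53.7 and 44.6 CPM in DUX-pulsed members and no UMI in control members, at least 25.7-fold higher, from 8 cells. In each DUX-pulsed library 1 cell held most of these UMIs, with 50 UMIs against 8 and 1 in the others of replicate 1 and 12 against at most 2 in those of replicate 2. Vim, the intermediate filament gene of mesenchyme, had 805 and 731 CPM in DUX-pulsed members, against 318 and 162 CPM in control members (log2 1.67, SE 0.29, edgeR adjusted p = 0.0180), and was lost without either DUX-pulsed library (adjusted p = 0.131 and 0.0629). The list's median log2 fold change was 1.26, against 0.00 over all genes. The 16 genes of that list summed to 1157 and 853 CPM in DUX-pulsed members and 541 and 251 CPM in control members, with Wt1 at 0. In the other kept cells they summed to 2247 and 4265 CPM in DUX-pulsed and 689 and 585 CPM in control libraries. Heart muscle genes, at 8767 and 10920 CPM in the other DUX-pulsed cells and 1928 and 1813 CPM in the other control cells, summed to 103 and 116 CPM in DUX-pulsed members and 107 and 90.7 CPM in control members. Whether RNA of other cells took part in these rises was not tested. Col9a1, from 10 cells, rose by 4.48, and Filip1l by 2.80.

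In the shifted regions, the proteoglycan gene Vcan (chromosome 13) had 282 and 367 CPM in DUX-pulsed members, against 44.5 and 45.4 CPM in control members (log2 2.84, SE 0.28, edgeR adjusted p = 0.000794), and Espn (chromosome 4), an actin-bundling protein, 172 and 212 CPM, against 25.7 and 21.1 CPM (log2 2.998). Both exceeded their regions' medians of 0.89 and 0.91. Tgfbi (chromosome 13) rose by 4.57 and Fblim1 (chromosome 4) by 2.75. The glycolytic genes Eno1 (chromosome 4) and Pgk1 (X chromosome, outside the regions) rose by 1.43 and 1.07 and were the 2 called of 12 tested hypoxia and glycolysis genes. Eno1 was lost without DUX-pulsed replicate 2 (adjusted p = 0.0763) and Pgk1 without either DUX-pulsed library (0.0628 and 0.174). Krt7 was the 1 gene that edgeR called of 16 general endoderm genes (DESeq2 called 2), at 178 and 121 CPM in DUX-pulsed and 53.4 and 38.9 CPM in control members, and was lost without DUX-pulsed replicate 1 (edgeR adjusted p = 0.217). In members with Foxe1 alone Krt7 had 121 and 19.25 CPM in DUX-pulsed and 57.8 and 41.75 CPM in control libraries, which overlap (log2 0.75, edgeR adjusted p = 0.646).

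Among the falls, the pharyngeal factor Nkx2-3 had 45.5 and 49.8 CPM in DUX-pulsed members, against 153 and 334 CPM in control members (log2 -2.35, SE 0.38, edgeR adjusted p = 0.0122). It was detected in 13 of 29 and 3 of 11 DUX-pulsed and 12 of 21 and 11 of 13 control members. Tlx1 had 35.5 and 26.2 CPM in DUX-pulsed members, against 102 and 170 CPM in control members (log2 -2.06, SE 0.35, edgeR adjusted p = 0.0157). Both genes were detected only in members with Foxe1 alone, of which DUX-pulsed replicates 1 and 2 held 22 of 29 and 7 of 11 and control replicates 1 and 2 held 20 of 21 and 12 of 13.

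Within the members with Foxe1 alone, Nkx2-3 had 68.2 and 73.1 CPM in DUX-pulsed and 176 and 410 CPM in control libraries and no longer passed (log2 -1.93, edgeR adjusted p = 0.0572). Tlx1 had 53.2 and 38.5 CPM there in DUX-pulsed and 117 and 209 CPM in control libraries (log2 -1.64, adjusted p = 0.0775). Both were also lost without either DUX-pulsed library (adjusted p between 0.0591 and 0.137). Set against the other kept cells, in which Nkx2-3 averaged 4.89 CPM in DUX-pulsed and 2.41 CPM in control libraries, the effect of the pulse differed by -3.48 in log2 (edgeR interaction term, adjusted p = 1.04e-20, a fit that gives no weight to the gene's own spread between libraries; DESeq2 adjusted p = 0.00956; 0.762% of 16134 genes had a higher and 1.15% a lower effect in members, 1.92% in all). No other pharyngeal transcription factor of 10 tested was called, and the median of the list was 0.21.

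Msx1, a BMP target, had 10.9 and 7.86 CPM in DUX-pulsed members, against 50.4 and 64.8 CPM in control members (log2 -2.50, SE 0.43, edgeR adjusted p = 0.0164), and was the 1 called of 12 BMP genes. It passed neither in the members with Foxe1 alone (edgeR adjusted p = 0.0606) nor without DUX-pulsed replicate 1 or 2 (0.135 and 0.0769).

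Car4, a membrane carbonic anhydrase, had 60.99 and 47.2 CPM in DUX-pulsed members, against 549.6 and 473 CPM in control members (log2 -3.203, SE 0.27, edgeR adjusted p = 0.000255), and kept its call in the members with Foxe1 alone (adjusted p = 0.00114). It was lower in DUX-pulsed cells outside the members as well, at a mean of 200.6 CPM against 1052 CPM. Rhox13, an X-linked homeobox gene, had no UMI in DUX-pulsed members and 43.5 and 17.8 CPM in control members, at least 15.9-fold lower, from 7 cells. Trap1a, also X-linked, had 0.910 and 0 CPM in DUX-pulsed members and 46.5 and 73.0 CPM in control members, from 5 cells in all. Both were lost without DUX-pulsed replicate 1 (edgeR adjusted p = 0.181 and 0.0545). Flt1 (in the region of chromosome 5), a VEGF receptor gene, fell by 4.48, Slc7a7 by 3.25, As3mt by 3.10, Slc9b1 by 3.05 and the exosome subunit gene Dis3 by 1.88, and each was lost without either DUX-pulsed library (adjusted p between 0.0783 and 0.228).

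**Figure D5:**
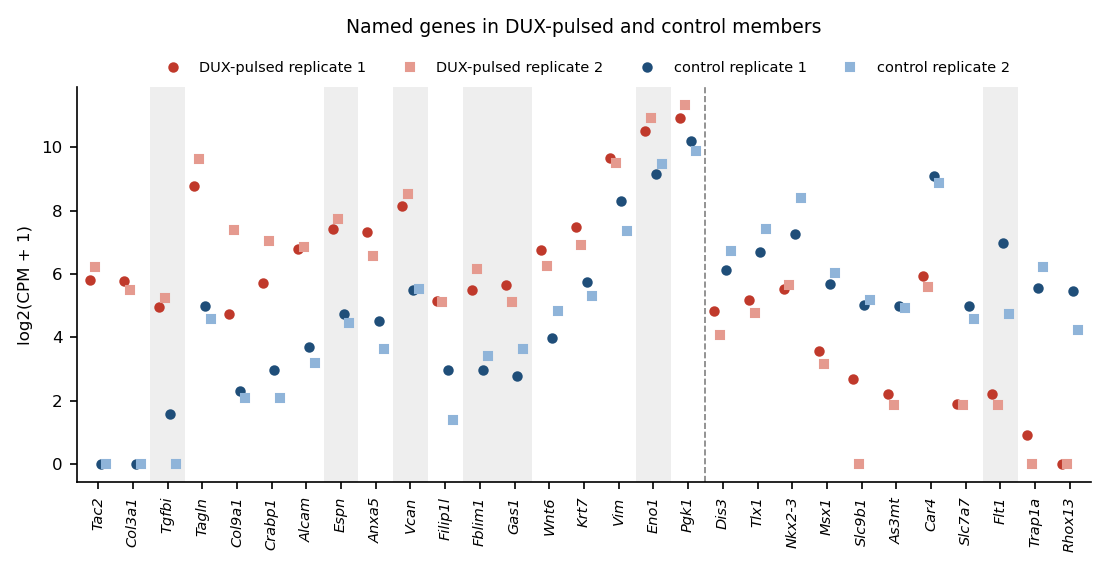
Levels of the named genes in members of each library, as log2 of CPM plus 1, with rises left of the dashed line, falls right of it, and genes of the shifted chromosome regions on grey. In each gene shown both DUX-pulsed points lie on the same side of both control points, which 44.8% of all genes tested did; the rule for naming genes required it.

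Most gene lists held no called gene between DUX-pulsed and control members. Of 15 S phase genes and 15 G2 and M genes 0 were called by edgeR and 0 by DESeq2, and 1 of each had an unadjusted p under 0.05 in edgeR. Of 14 p53 and dissociation genes, 9 liver genes and 7 visceral endoderm genes 0 were called by either tool, with 1, 5 and 5 at an unadjusted p under 0.05. The visceral endoderm genes, all 5 of these lower in DUX-pulsed members, summed to 1711 and 573 CPM in DUX-pulsed members and 7374 and 767 CPM in control members, the high value being that of control replicate 1. No thyroid, ventral forebrain, erythroid, myeloid or Hox gene had enough counts to be tested. On simulated counts at the depth of these members, the test recovered 8.51% of genes changed by 1 in log2 and 91.1% of those changed by 2. A change of 2-fold was thus mostly not detectable at this depth. The simulation set the same dispersion of 0.05 for every gene and did not take it from these data, so the shares hold for that setting only. Fewer cells of a kind and less RNA per cell cannot be told apart in sums over cells.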

How the data were processed

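The deposited table gives UMI counts per gene and cell (20284 genes, 10090 cells), not normalized; the poorest cell had 501 detected genes and the highest mitochondrial share was 20.0%, and the authors' cell filter was not given in the sources used here. The submitters' processing notes name Cell Ranger 2.2.0, STAR and mm10. Cells were assigned to libraries by the names of their columns.

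The limits on kept cells (500 genes, 10% mitochondrial counts) left 2063 and 1353 in DUX-pulsed replicates 1 and 2 (65062824 and 36462169 UMIs) and 2824 and 2636 in control replicates 1 and 2 (96344329 and 78167098 UMIs). UMIs were summed per library and cell set and tested with edgeR 4.0.16 (quasi-likelihood, TMM, at least 10 counts in 2 sums and 40 in all, adjusted p under 0.05), with the library as a block except between DUX-pulsed and control. edgeR moves each gene's spread between libraries towards that shared by all genes, so a gene whose replicates lie far apart can still pass. A gene's own spread had 2 or 3 residual degrees of freedom, against 6.53 to 9.57 for the shared spread. For the difference of effects the weight of the shared spread was infinite, so those p-values do not measure a gene's own spread between libraries. DESeq2 1.42.0 was the other tool. Shares were compared with an exact permutation test (scipy 1.17.1), and R was version 4.3.3. Scrublet (scanpy 1.11.5) called 37 cells (0.417%), too few for a working threshold, so no doublet was removed and the top 5% of scores (442 cells) were left out as an alternative. The fits were tested on simulated data.

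Members and 33 gene lists were chosen with earlier results of these data known. Genes were named where called, with at least 20 CPM in the higher set and every library on the same side: the 12 largest rises and 12 largest falls between DUX-pulsed and control members, 12 and 8 against the other cells, and 6 and 6 against each of the smaller comparison sets. To these came 2 genes a list by p and all tested genes of the foregut, thyroid, lung, endoderm and forebrain lists; mitochondrial, ribosomal and predicted genes were not named. Sequences are RefSeq's. Results for some genes are not reported here.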

Additional observations from a re-analysis of the deposited data

Results flagged for a closer look

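Each result here is a gene whose difference between DUX-pulsed and control cells was not the same in members and in the other kept cells, by the interaction term of edgeR's quasi-likelihood fit (309 of 16134 genes, 123 with a higher and 186 with a lower effect in members; DESeq2 called 18 and 53). Values are the log2 effect in members minus that in the other cells, with the adjusted p. The fit had 2 residual degrees of freedom and an infinite prior, so each p rests on the spread shared by all genes and gives no weight to the gene's own spread between libraries; small values are not evidence from 2 libraries a group. Of the 23 genes below DESeq2 called 10, and 5 (Bmp4, Nkx2-3, Pitx1, Tagln and Tlx1) kept the call in all 4 fits without 1 library. With 2 libraries a group, no single library could be tested as standing apart. On simulated counts with a dispersion of 0.05 for every gene, this fit recovered 0% of genes changed by 1 in log2 and 12.1% of those changed by 2.

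Nkx2-3, Tlx1, Pitx1, Bmp4 and Krt14 averaged lower in DUX-pulsed than in control members and higher in the other DUX-pulsed cells than in the other control cells. Nkx2-3 (-3.48, 1.04e-20) averaged 45.1 CPM in DUX-pulsed and 238 CPM in control members, and 4.89 and 2.41 CPM in the other DUX-pulsed and control cells. Tlx1 (-3.80, 2.97e-13) averaged 29.3 and 133 CPM in members and 1.30 and 0.435 CPM in the others. The values were -4.01 (1.67e-19) for Pitx1, -1.89 (1.63e-08) for Bmp4 and -6.20 (1.05e-06) for Krt14.

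Shh (-1.50, 0.000633) averaged 116 CPM in DUX-pulsed and 118 CPM in control members, and 13.0 and 3.70 CPM in the others. Isl1 (-1.15, 0.0273) and Ptch1 (-1.11, 0.00726) averaged higher in DUX-pulsed cells in both sets, and less so in members. In members Isl1 overlapped between the groups, with 87.2 and 163 CPM in DUX-pulsed and 67.3 and 119 CPM in control libraries. Both genes lie on chromosome 13. Sox17 (-3.12, 1.82e-05) averaged 3.31 and 39.4 CPM in members, its high value being that of control replicate 1, and 88.7 and 168 CPM in the others. Trap1a (-8.04, 1.11e-27) averaged 0.440 and 58.4 CPM in members. In the other cells it had 125.5 and 16.8 CPM in DUX-pulsed and 35.9 and 28.75 CPM in control libraries, so that the direction there is that of DUX-pulsed replicate 1; in members with Foxe1 alone it was at 0 in control replicate 2. Flt1 (-3.16, 1.01e-07), As3mt (-2.26, 0.0396) and Car4 (-0.83, 0.0428) were lower in DUX-pulsed cells in both sets, and more so in members.

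Tagln (3.39, 8.59e-30) averaged 579.6 and 26.3 CPM in members and 254 and 129 CPM in the others. Alcam (1.82, 0.00121), Espn (1.53, 0.000973), Anxa5 (1.32, 0.0125) and Crabp1 (2.13, 0.0350) were likewise higher in DUX-pulsed cells of both sets, and more so in members. Esrp1 (1.48, 0.00131) averaged 87.4 and 53.3 CPM in members and 22.0 and 36.7 CPM in the others, and Hhex (2.10, 0.00732) 39.6 and 52.8 CPM in the others. Hhex had 33.5 and 2.43 CPM in DUX-pulsed and 7.91 and 4.69 CPM in control members, the higher mean being that of DUX-pulsed replicate 1. Ttr (0.73, 0.0347) had 257 and 173 CPM in DUX-pulsed and 2130 and 65.7 CPM in control members, and averaged 1818 and 6485 CPM in the others. Its control mean rests on replicate 1, and the order of the groups turns without it. The fitted values of Col3a1 (10.18, 0.0115) and Tac2 (10.41, 0.0322) are set against 0 UMIs in control members and give no size.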

How the results depend on the processing

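The difference in member share turned round to -0.0967 percentage points under the stricter cell limit (1000 genes, 5% mitochondrial counts), and ranged from 0.195 to 0.787 with 1 library left out. Calls between DUX-pulsed and control members (113) were 476 with no filter on low counts, 190 under the stricter limit, 52 without the highest doublet scores, 25 in cells of 20000 to 60000 UMIs, 207 with Sox2 and 180 with Foxe1 or Nkx2-1 at 2 or more UMIs, 47 in members with Foxe1 alone, 63 without the shifted chromosome regions, and 23 to 298 with 1 library left out. Against the other kept cells (2022) calls were 364 with no library block and 1326 to 1915 with 1 library left out. Against cells with Foxe1 or Nkx2-1 and no Sox2 (1142) they were 1901 with no low filter, 540 under the stricter limit, 745 at 20000 to 60000 UMIs, 184 with no library block and 380 to 889 with 1 library left out. Against Sox2 cells (241) they were 918 with no low filter, 52 with no library block and 61 to 277 with 1 library left out. For the difference of effects (309) they were 71 by DESeq2, 179 at 20000 to 60000 UMIs and 32 to 465 with 1 library left out. The causes were not tested.

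With the replicate number as a replicate block, 252 genes were called between DUX-pulsed and control members. Same-numbered libraries deviated together with r = 0.173 in members and 0.350 in kept cells, and 2 pairs do not establish pairing. Of the genes named in the text and called in these 4 comparisons, 0 reversed; 6 of 29 between DUX-pulsed and control members, 23 of 67 against the other cells, 9 of 23 and 7 of 20 against the Foxe1 or Nkx2-1 and the Sox2 cells kept their call throughout. The difference of effects turned round for Car4 (0.216 under the stricter limit, 0.623 at 20000 to 60000 UMIs) and, with 1 library left out, for Hhex (-0.94 to 2.62, the low value without DUX-pulsed replicate 1), Sox17 (-4.04 to 1.26, the high value without control replicate 1) and Ttr (-1.37 to 3.49, the low value without control replicate 2). The fits for members with Foxe1 alone, for Foxe1 or Nkx2-1 at 2 or more UMIs and without region genes were chosen after seeing the data. The planned comparison of members with Nkx2-1 alone and Foxe1 alone was not run, since every library held under 10 cells with Nkx2-1.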
